A study of Mus musculus with 4 samples.

Results

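The nuclear-encoded subunits of the mitochondrial respiratory chain were examined in TBV2 mouse embryonic stem (ES) cells exposed to MS-275 or to solvent alone. A gene was taken as a member when its symbol in the expression profiles began with Nduf (complex I, without the Ndufaf assembly factors), Sdh followed by a, b, c or d (complex II), Uqcr (complex III), Cox4 to Cox8 (complex IV) or Atp5 (complex V, the ATP synthase). These letters took 84 of the 28250 genes listed, namely 37 for complex I, 4 for complex II, 8 for complex III, 18 for complex IV and 17 for complex V. Of the 84, 83 reached 0.001 in 2 or more libraries and were tested among 20336 genes. Cox8b was not tested, being listed at 0 in 3 libraries and at 0.00505 in MS-275 replicate 1. Complexes were assigned by the symbol alone, which need not match the enzyme that holds the protein. The letters also took at least 3 genes that are not subunits of the enzymes themselves. These are Cox4nb, whose product belongs to the membrane protein complex of the endoplasmic reticulum, and Atp5s and Atp5sl. Atp5s was named as a coupling factor of the synthase, and Atp5sl for its likeness to Atp5s. Cox4i1, the widely expressed form of subunit 4, and Ndufb8 were not analysed here.

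TBV2 is a mouse ES cell line that the paper describes as dependent on feeder cells. The sequenced cells were treated in the presence of LIF, the cytokine that holds back differentiation. The paper names gelatin plates for its drug screen and its colony assay. MS-275 (entinostat) is an inhibitor of class I histone deacetylases, and it was given at 5 µM for 24 h, against solvent for 24 h. Poly(A) RNA was sequenced in 2 libraries per condition, with no genotype or other treatment separating the groups. The labels do not say that the 2 libraries of a condition came from separate cultures, so p-values measure only the spread between these libraries, and they do not say how many feeder cells were harvested with the ES cells.

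The respiratory chain passes electrons from NADH (complex I) and succinate (complex II) through ubiquinone to complex III, then by cytochrome c to complex IV, which reduces oxygen. The proton gradient made on the way drives the ATP synthase. Complex I has a core of conserved subunits that carries the flavin, the iron-sulphur clusters and the proton pumps, surrounded by accessory subunits, and complex IV has alternative nuclear subunits that are used in particular tissues such as heart, skeletal muscle, lung and testis. ES cells are known to combine a high rate of glycolysis with respiration.

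The values are normalized expression values without a stated formula, and they are compared here mainly between libraries for a given gene. Rankings by mean value, ratios of isoforms and sums of markers set genes beside each other, and these depend on that unstated formula. On the alignments deposited beside them, the files of replicate 1 held 23467935 (solvent) and 20008841 (MS-275) alignments, of which 53.2% and 54.4% lay at a position and strand already taken, and the files of replicate 2 held 9785619 and 10915650 alignments with no position taken more than 1 time. The values did not follow the files they were deposited with. Over the members, the log2 values of replicate 1 correlated best with the alignments deposited with replicate 2 of the same condition (Pearson r = 0.875 for solvent and 0.891 for MS-275), and those of replicate 2 with the alignments deposited with replicate 1 (0.937 and 0.941). The condition of each library is the same either way. Libraries with the same replicate number shared their deviations (r = 0.920 over the 83 members), so that they are called replicate pairs 1 and 2, and results are given for each pair.

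Among the members the largest changes were in tissue-restricted isoforms of complex IV: Cox7b2, Cox8c, Cox7a1 and Cox4i2 rose with MS-275 when the replicates were paired, and the bulk of the chain gave no uniform shift. In the limma fit without a replicate block, 0 of 83 members were called higher (0.00492% of all genes tested) and 0 lower (0% of all genes tested) at an adjusted p under 0.05, and 3 members, all higher, had an unadjusted p under 0.05. Over all genes this fit called only 1, so that a count of 0 does not set the members apart, with 3538 at an unadjusted p under 0.05. With the replicate pair as a block in the limma fit, 5 members were called higher (Cox4i2, Cox7a1, Cox7b2, Cox8c and Ndufa8), which is a smaller share than the 21% of all genes, and 0 were called lower, against 6.46% of all genes. Quantile normalization with the block gave 13 higher (13.9% of all genes) and 2 lower (13.2%), median-ratio scaling 4 higher (16.6%) and 3 lower (14.1%), and the removal of exon length and GC trends 4 higher (14.7% of 17250 genes) and 6 lower (15.7%). The balance of higher and lower members thus depended on the scaling, and the 13 higher members were close to the share of all genes. At least 2-fold in both pairs, 3 members were higher, against 11.5% of the genes listed, and 0 lower, against 2.04%.

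The members did not move alike in the replicate pairs. The median log2 fold change over the members was 0.28, beside 0.20 over all genes tested, but it was -0.06 in pair 1 (all genes 0.13) and 0.62 in pair 2 (all genes 0.24). Most members are well expressed, 75 of the 83 having a mean value of 0.1 or more, and over the 7579 genes with such a mean the median was 0.04, with -0.04 in pair 1 and 0.10 in pair 2. In pair 1, 33 of 83 members were higher with MS-275, against 59.3% of all genes tested. In pair 2, 69 of 83 were higher, against 63.8%. Both pairs were higher for 32 members, against a background of 50.0%, and both were lower for 13, against 26.5%, while 38 went opposite ways, 37 of them lower in pair 1 and higher in pair 2. Both MS-275 values stood above both solvent values for 6 members (32.3% of all genes did so) and below them for 1 (12%). With median-ratio scaling the members' median was 0.02 and that of all genes -0.01, and with quantile normalization they were 0.15 and -0.02. After exon length and GC trends were removed from each library, a setting chosen after seeing the data, the members' median turned to -0.03 beside -0.05 over the genes in that fit.

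**Figure D1:**
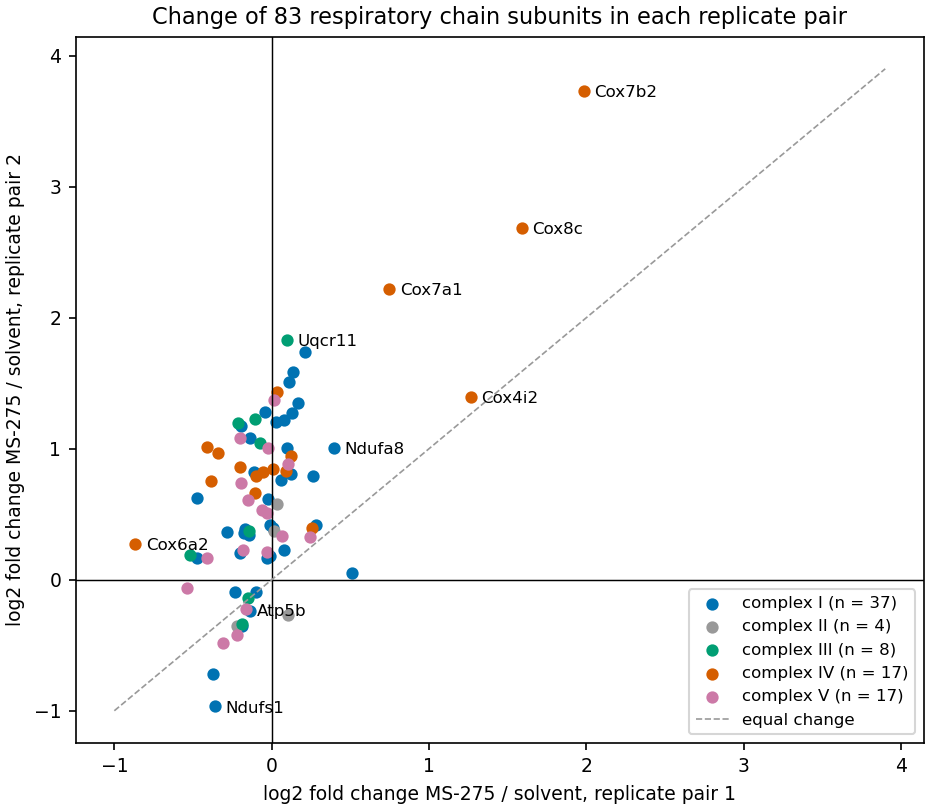
Log2 fold change of MS-275 over solvent for the 83 members tested, replicate pair 1 on the horizontal and pair 2 on the vertical axis, 1 point per gene coloured by complex, with the dashed line marking equal change. Cox7b2, Cox8c, Cox7a1 and Cox4i2 lie high in both pairs, Ndufs1 low in both, and most other members sit near 0 in pair 1 and above 0 in pair 2.

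Promoter sequences of members were taken from RefSeq (GRCm38.p6), as windows of 300 bases that run across the gene start, and 69 of the 84 members matched. Windows are printed for Cox7b2 and Cox7a1, isoforms that rose, for Cox7b, the widely expressed partner of Cox7b2, and for Cox6a1, a widely expressed subunit whose window holds motifs of factors known for controlling respiratory genes. Cox8c, Cox4i2 and Ndufs1 had no entry. The 3 motifs below were searched on both strands: the NRF1 palindrome, whose letters are the first capitals in the Cox6a1 window, CCGGAAG for ETS factors, among them GABP, and AAGATGGC for YY1, none of which contains another. Capitals mark a match, and a motif read from the opposite strand appears as its reverse complement.

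The window of Cox7b2 is chr5:71548156-71548455 (minus strand) and that of Cox7b chrX:106015450-106015749 (plus strand), while those of Cox7a1 and Cox6a1 are chr7:30183921-30184220 (plus strand) and chr5:115348909-115349208 (minus strand).
Cox7b2: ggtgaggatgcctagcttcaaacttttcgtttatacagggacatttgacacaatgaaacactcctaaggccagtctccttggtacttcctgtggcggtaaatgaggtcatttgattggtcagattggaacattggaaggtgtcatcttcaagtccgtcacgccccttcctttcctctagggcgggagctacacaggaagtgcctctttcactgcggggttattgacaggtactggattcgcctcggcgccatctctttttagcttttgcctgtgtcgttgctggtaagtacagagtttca
Cox7b: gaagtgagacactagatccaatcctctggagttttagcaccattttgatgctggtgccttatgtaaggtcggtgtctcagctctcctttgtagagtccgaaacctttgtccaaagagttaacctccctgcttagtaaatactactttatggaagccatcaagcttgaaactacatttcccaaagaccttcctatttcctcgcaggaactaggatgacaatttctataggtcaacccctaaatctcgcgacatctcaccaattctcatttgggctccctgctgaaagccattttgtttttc
Cox7a1: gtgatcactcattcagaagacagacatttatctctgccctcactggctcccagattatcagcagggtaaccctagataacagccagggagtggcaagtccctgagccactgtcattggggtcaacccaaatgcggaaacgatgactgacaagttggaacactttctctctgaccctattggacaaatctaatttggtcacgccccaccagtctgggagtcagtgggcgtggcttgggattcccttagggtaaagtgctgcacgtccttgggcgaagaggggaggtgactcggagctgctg
Cox6a1: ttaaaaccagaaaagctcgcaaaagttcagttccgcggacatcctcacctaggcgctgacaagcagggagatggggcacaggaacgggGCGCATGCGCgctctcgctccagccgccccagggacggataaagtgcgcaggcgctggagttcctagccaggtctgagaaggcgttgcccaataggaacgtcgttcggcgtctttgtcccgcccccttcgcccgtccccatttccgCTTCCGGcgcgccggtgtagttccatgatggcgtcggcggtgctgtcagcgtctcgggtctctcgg

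The Cox6a1 window held an NRF1 and an ETS match and 32 CpG dinucleotides. The windows of Cox7b2, Cox7b and Cox7a1 held none of the 3 motifs and had 10, 5 and 7 CpG. Over the members with a window, 5 held the NRF1 motif (7.25%, against 1.07% of 27025 genes with a window), 16 the ETS motif (23.2% against 9.93%) and 10 the YY1 motif (14.5% against 3.19%). The median window held 19 CpG over the members and 8 over all genes. The NRF1 matches were in Atp5g2, Atp5k, Cox6a1, Ndufa11 and Uqcrc1. A match describes these letters in this window only.

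Complex IV held the members that changed most. Cox7b2 (gene ID 78174, chr5:71834063-71939444, minus strand of mm9 in GENCODE M1, as for the genes that follow), a form of subunit 7b known from testis, was listed at 0.0278 and 0.00708 in solvent replicates 1 and 2 and at 0.125 and 0.155 with MS-275. Both treated values were several times above both controls. The means were 0.0174 ± 0.0147 and 0.140 ± 0.0217 (SD, n = 2), and the log2 fold change, on the log2(value + 0.005) scale, was 2.86 ± 0.62 (SE), with a limma adjusted p of 0.0655 without and 3.19e-05 with the block. The ratio of the values was 4.48 in pair 1 and 21.9 in pair 2. The same direction appeared in the alignments, where distinct positions on its exons rose from 7 to 99 in the files of replicate 1 and from 13 to 66 in those of replicate 2.

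Its partner Cox7b gave 0.650 and 5.27 in solvent and 0.512 and 10.3 with MS-275. The Cox7b values thus fell on different sides of the control in the pairs, with a limma adjusted p of 0.974 without and 0.649 with the block. The log2 ratio of Cox7b2 to Cox7b within a library went from -4.32 to -1.99 in pair 1 and from -8.77 to -6.01 in pair 2, a rise of 2.32 and 2.77.

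Cox8c (gene ID 75483, chr12:104137516-104138744, plus strand), the testis form of subunit 8, was listed at 0.0357 and 0.0295 in solvent and at 0.117 and 0.217 with MS-275. Both treated values lay above both controls. The means were 0.0326 ± 0.00436 and 0.167 ± 0.0707 (SD, n = 2), with a log2 fold change of 2.14 ± 0.48 (SE) and a limma adjusted p of 0.0709 without and 5.60e-05 with the block. The widely expressed Cox8a gave 0.617 and 2.62 in solvent and 0.576 and 4.53 with MS-275, lower in pair 1 and higher in pair 2. The log2 ratio of Cox8c to Cox8a rose by 1.69 in pair 1 and by 1.90 in pair 2. Cox8b, the heart and skeletal muscle form, stayed at the edge of detection, with 2 alignments in 1 of the 4 files and 0 in the others.

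Cox4i2 (gene ID 84682, chr2:152579909-152590773, plus strand), the lung form of subunit 4, which is known for its response to low oxygen, was listed at 0.0337 and 0.0223 in solvent and at 0.0882 and 0.0667 with MS-275. The groups did not overlap, and the spread within them was small. The means were 0.0280 ± 0.00811 and 0.0774 ± 0.0152 (SD, n = 2), with a log2 fold change of 1.33 ± 0.54 (SE) and a limma adjusted p of 0.242 without and 0.00190 with the block. Distinct positions on its exons went from 36 to 71 and from 25 to 74.

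Cox7a1 (gene ID 12865, chr7:30969190-30971047, plus strand), the heart and skeletal muscle form of subunit 7a, was listed at 0.184 and 0.466 in solvent and at 0.313 and 2.18 with MS-275. The groups overlapped, as solvent replicate 2 stood above MS-275 replicate 1, but the treated library was the higher in each pair. The means were 0.325 ± 0.199 and 1.25 ± 1.32 (SD, n = 2), with a log2 fold change of 1.48 ± 0.85 (SE) and a limma adjusted p of 0.442 without and 0.00219 with the block. Leaving out MS-275 replicate 2 brought the log2 fold change to 0.09. Cox7a2, the widely expressed form, gave 0.544 and 2.27 in solvent and 0.473 and 4.12 with MS-275. For the log2 ratio of Cox7a1 to Cox7a2 both treated libraries (-0.59 and -0.91) stood above both controls (-1.54 and -2.28), and the exact two-sided permutation test gave p = 0.333, the smallest that 2 against 2 libraries allow.

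The other tissue-restricted isoforms did not pass the test in either fit. Cox6b2, a testis form of subunit 6b, gave 0.410 and 0.678 in solvent and 0.419 and 1.84 with MS-275, so that its difference came from pair 2. Cox6a2, the heart and skeletal muscle form of subunit 6a, was near the lower edge of the scale, at 0.0119 and 0.00297 in solvent and 0.00426 and 0.00465 with MS-275, and was called lower with the block only after length and GC trends were removed (limma adjusted p = 0.0453). The isoform of the Ndufa4 subunit that is induced by low oxygen, Ndufa4l2, gave 0.0587 and 0.109 in solvent and 0.0725 and 0.147 with MS-275. Of the 6 ratios of an isoform to its partner that were formed, those of Cox7a1, Cox7b2, Cox8c and Cox6b2 were higher with MS-275 in both pairs, that of Cox6a2 to Cox6a1 was lower in both, and that of Ndufa4l2 to Ndufa4 was mixed. None could pass a threshold of 0.05 with 4 libraries.

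**Figure D2:**
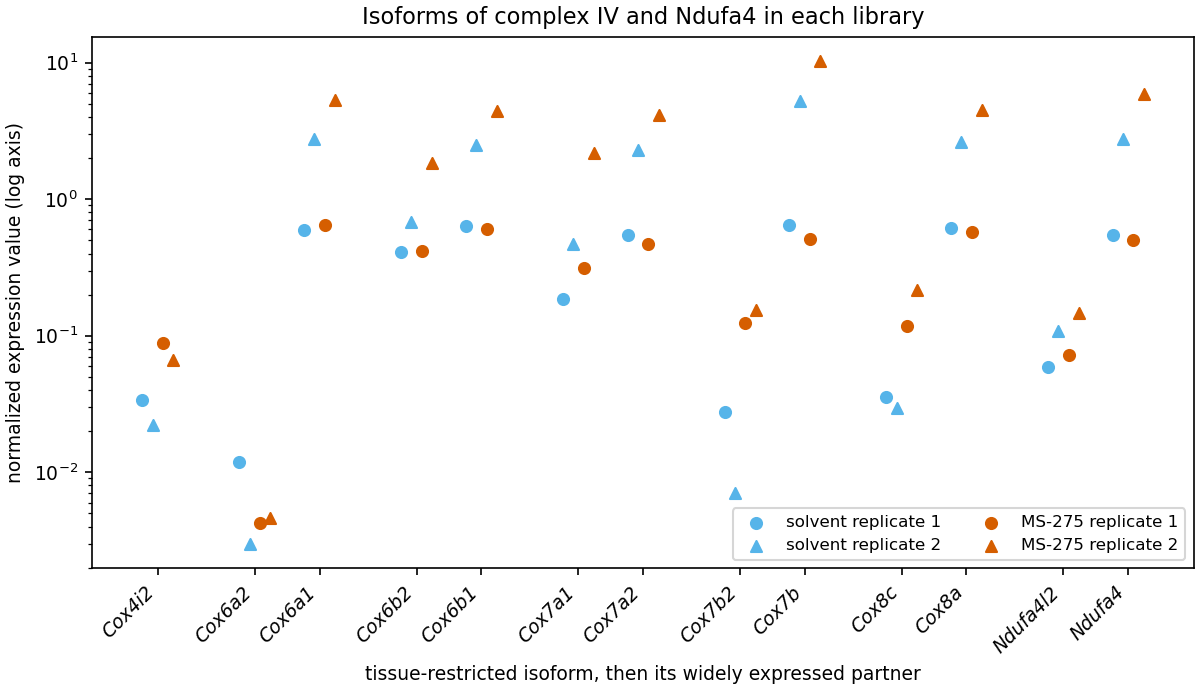
Normalized expression values (log axis) of tissue-restricted isoforms and their widely expressed partners in each of the 4 libraries, circles for replicate 1 and triangles for replicate 2, blue for solvent and orange for MS-275. Orange stands above blue in both pairs for Cox4i2, Cox7a1, Cox7b2 and Cox8c, and also for Cox6b2, Ndufa4l2 and the partner Cox6a1. Partners such as Cox7b differ far more between replicates (0.650 and 5.27 in solvent) than between treatments in pair 1.

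Over the other 11 complex IV members, the partners included, the median log2 fold change was -0.10 in pair 1 and 0.83 in pair 2, with 4 higher in both pairs and 0 lower in both. Cox5a, which with Cox5b forms the matrix-facing side of the enzyme, gave 0.543 and 2.74 in solvent and 0.547 and 4.94 with MS-275. Cox6a1 gave 0.594 and 2.75 in solvent and 0.648 and 5.28 with MS-275, with a limma adjusted p of 0.926 without and 0.322 with the block. Cox4nb, no subunit of the enzyme, gave 0.269 and 0.365 in solvent and 0.323 and 0.482 with MS-275, and was called on distinct alignment positions only. The widely expressed partners Cox6b1 and Ndufa4 were lower in pair 1 and higher in pair 2, Cox6b1 with 0.632 and 2.48 in solvent and 0.607 and 4.39 with MS-275, and Ndufa4 with 0.548 and 2.76 in solvent and 0.499 and 5.86 with MS-275.

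In complex I, 16 of 37 members were higher in both pairs, 6 lower in both and 15 lower in pair 1 and higher in pair 2. Ndufa7, the member with the highest mean value, gave 0.524 and 3.42 in solvent and 0.534 and 7.91 with MS-275, and Ndufs5 the lowest, from 0.0108 to 0.0146 over the 4 libraries. Ndufs1 (gene ID 227197, chr1:63190170-63223396, minus strand), the largest core subunit, which binds iron-sulphur clusters, was listed at 0.555 and 0.840 in solvent and at 0.431 and 0.427 with MS-275. Both treated values lay below both controls, with means of 0.697 ± 0.202 and 0.429 ± 0.00245 (SD, n = 2). The log2 fold change was -0.66 ± 0.52 (SE), with a limma adjusted p of 0.616 without and 0.0736 with the block.

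Counting distinct alignment positions in place of the values, limma-voom with the block called 6 members higher (31.4% of 15146 genes) and 4 lower (14.2%). Ndufs1 and Ndufs3 were among the lower ones, with adjusted p of 0.00560 and 0.00991, as was Atp5sl. Distinct positions on Ndufs1 went from 1671 to 972 in the files of replicate 1 and from 1570 to 1371 in those of replicate 2. Ndufs1 was also called lower with the block under quantile normalization, median-ratio scaling and the removal of length and GC trends.

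Ndufa8 (gene ID 68375, chr2:35891846-35904926, minus strand), an accessory subunit with paired cysteine motifs, gave 0.274 and 0.360 in solvent and 0.362 and 0.728 with MS-275. The highest control and the lowest treated value almost met, and the log2 fold change was 0.70 ± 0.50 (SE) with a limma adjusted p of 0.569 without and 0.0458 with the block. Among the 6 fits with the block it was called in 2, and the adjusted p ranged from 0.0102 to 0.437. The accessory subunits with the largest log2 fold changes that went the same way in both pairs were Ndufa1 and Ndufa3. Ndufa1 gave 0.281 and 1.47 in solvent and 0.326 and 4.91 with MS-275, and Ndufa3 gave 0.343 and 0.984 in solvent and 0.377 and 2.96 with MS-275, so that nearly all of the change was in pair 2. Their limma adjusted p with the block were 0.0516 and 0.0696. Ndufv3, a subunit of the flavoprotein part, was called higher on distinct positions (limma-voom adjusted p = 0.000314 with the block), with values of 0.481 and 1.63 in solvent and 0.541 and 4.15 with MS-275.

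No member of complex II, the succinate dehydrogenase that the chain shares with the tricarboxylic acid cycle, passed the test with or without the block. Sdha, the flavoprotein, gave 0.577 and 0.693 in solvent and 0.582 and 0.899 with MS-275. Sdhb, the iron-sulphur subunit, gave 0.469 and 1.05 in solvent and 0.506 and 0.870 with MS-275, higher in pair 1 and lower in pair 2. The membrane anchors went opposite ways, Sdhc with log2 fold changes of 0.03 and 0.58 in pairs 1 and 2 and Sdhd with -0.22 and -0.36. Sdhd was called lower with the block after length and GC trends were removed (limma adjusted p = 0.0455). The limma adjusted p of the 4 genes were between 0.898 and 0.984 without the block and between 0.449 and 0.861 with it.

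Complex III had 1 member higher and 2 lower in both pairs, and the other 5 were lower in pair 1 and higher in pair 2. Uqcr11, a small accessory subunit, gave 0.227 and 1.27 in solvent and 0.244 and 4.53 with MS-275. Its adjusted p in the limma fit was 0.817 without and 0.0534 with the block. The core proteins of the matrix side were lower in both pairs, Uqcrc1 with 0.568 and 0.788 in solvent and 0.511 and 0.717 with MS-275, and Uqcrc2 with 0.654 and 0.971 in solvent and 0.575 and 0.767 with MS-275. Neither passed the test, with limma adjusted p of 0.729 and 0.520 with the block. Uqcr10, the member with the highest mean value in this complex, gave 0.659 and 3.75 in solvent and 0.612 and 8.78 with MS-275.

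In complex V, 4 members were higher and 4 lower in both pairs, and none was called on the values with the authors' scaling, with or without the block. Atp5b, the catalytic beta subunit, gave 1.19 and 8.66 in solvent and 1.07 and 7.40 with MS-275. Atp5c1, the rotating gamma subunit of the central stalk, gave 0.615 and 1.27 in solvent and 0.528 and 0.947 with MS-275. Atp5d, the delta subunit of the same stalk, gave 0.474 and 0.876 in solvent and 0.509 and 1.62 with MS-275. Atp5sl gave 0.197 and 0.126 in solvent and 0.159 and 0.0887 with MS-275, lower in both pairs. The limma adjusted p of Atp5d with the block was 0.234 and that of Atp5sl 0.199. Atp5sl was called lower with the block under median-ratio scaling (limma adjusted p = 0.0257), after length and GC trends were removed (0.0167) and on distinct positions (0.0130).

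The membrane ring of the synthase is made of 1 protein that 3 genes encode. Atp5g3 gave 0.754 and 3.44 in solvent and 0.762 and 8.92 with MS-275, and Atp5g1 gave 0.236 and 0.497 in solvent and 0.232 and 0.708 with MS-275. Atp5g2 was listed at only 0.00151 and 0.00251 in solvent and 0.00270 and 0.00442 with MS-275, on 6, 4, 6 and 5 alignments in the 4 files. Of its 35-base exon windows, 0% occurred at only 1 place of the mm9 genome. For Atp5l the share of windows at 1 place was 12%, for Cox5b 32.3%, for Cox7a2l 34.0%, for Ndufs5 54.5% and for Uqcrb 63.2%, so that levels of these genes are uncertain, while Cox4i2, Cox7a1, Cox8c and Ndufa8 were at 100% and Cox7b2 at 98.6%.

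**Figure D3:**
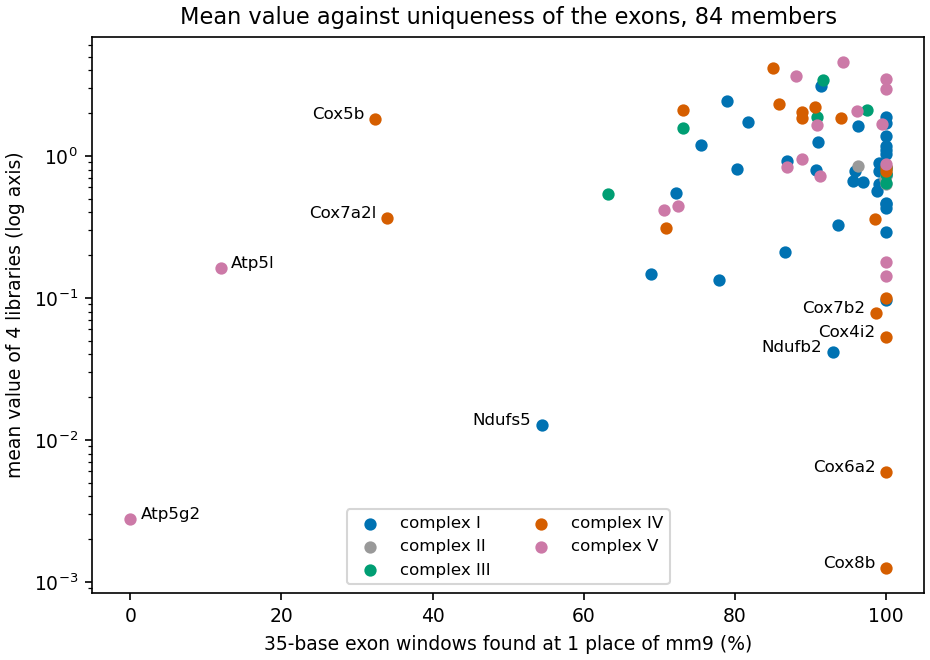
Mean value over the 4 libraries (log axis) of the 84 members against the share of their 35-base exon windows found at a single place of mm9, 1 point per gene coloured by complex. Atp5g2 (0%), Atp5l (12%) and Ndufs5 (54.5%) combine low uniqueness with low values, while Cox4i2 and Cox6a2 are low at 100% uniqueness. Cox5b (32.3%) and Cox7a2l (34.0%) have low uniqueness with mean values of 1.81 and 0.365.

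By complex, the median log2 fold change over the 4 libraries was 0.28 for complex I, 0.06 for II, 0.30 for III, 0.38 for IV and 0.23 for V. The plot by complex shows that all 5 medians lay above 0 in pair 2, and those of complexes I, III and V below 0 in pair 1.

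**Figure D4:**
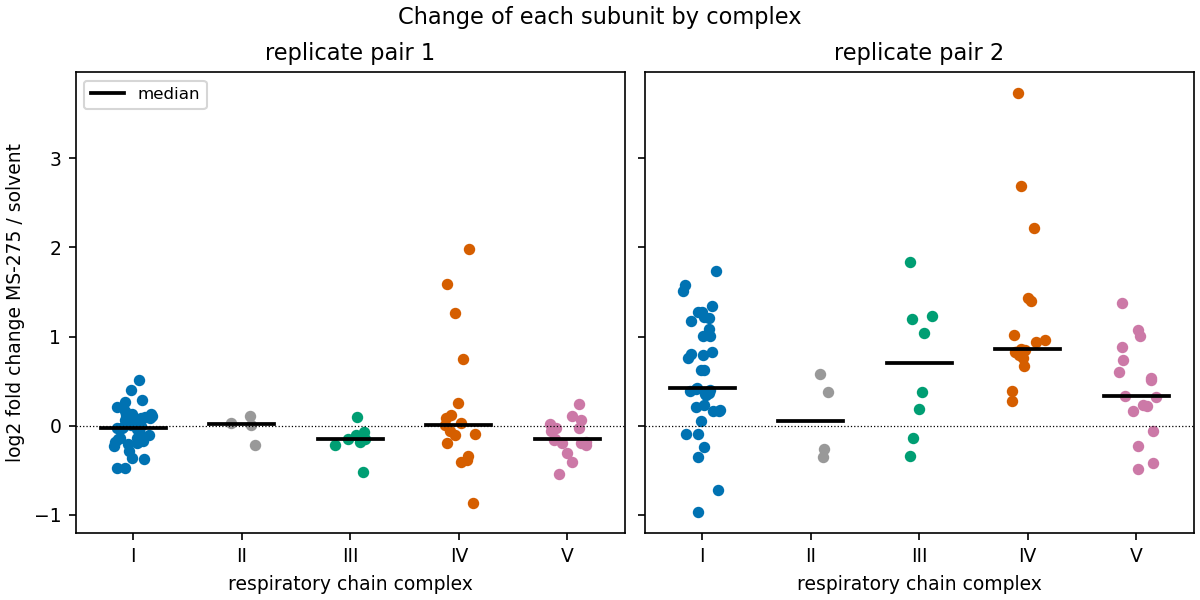
Log2 fold change of MS-275 over solvent for each member by complex, pair 1 on the left and pair 2 on the right, with the median as a black line. The medians of complexes I to V were -0.02, 0.02, -0.15, 0.01 and -0.15 in pair 1 and 0.42, 0.05, 0.71, 0.86 and 0.33 in pair 2.

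The change in pair 2 went with the length of the coding sequence. Across the 83 members, which share their libraries and are not independent replicates, log2 coding length and log2 fold change had r = -0.56 (Spearman rho -0.58) in pair 2 and r = -0.10 (rho -0.04) in pair 1. Over 15962 genes with a coding length the same r was -0.15 in pair 2 and -0.02 in pair 1. The 52 tested members with a coding length under 500 bases had a median of 0.83 in pair 2 and -0.06 in pair 1, and the 11 of 1000 bases or more had -0.14 in both. Genes of under 500 bases over the whole table had medians of 0.51 in pair 2 and 0.13 in pair 1, and those of 1000 or more 0.20 and 0.15. Among genes with a mean value of 0.1 or more, which most members reach, the medians under 500 bases were 0.59 and 0.003. For such genes of 1000 bases or more they were -0.009 and -0.04, so that a length pattern was not particular to the members.

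**Figure D5:**
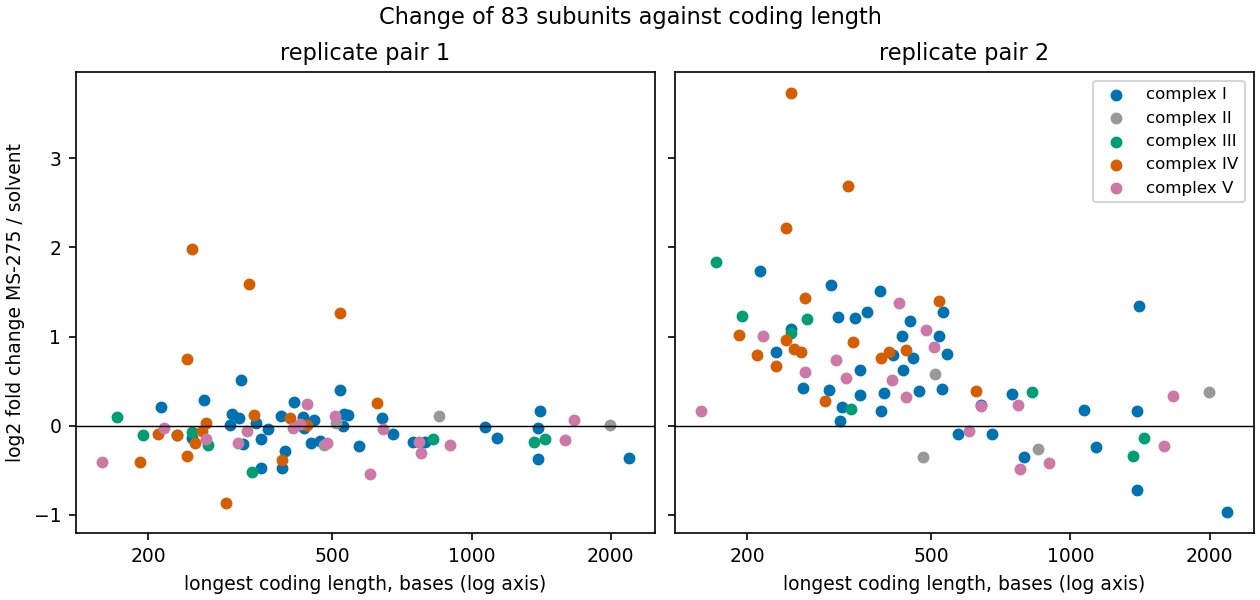
Log2 fold change of MS-275 over solvent against the longest coding length in bases (log axis) for the 83 members, pair 1 on the left and pair 2 on the right, coloured by complex. In pair 2 the short members lie mostly above 0 (median 0.83 under 500 bases) and the long ones around -0.14, while pair 1 has no such slope.

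The members' reads were repeated far more than the libraries as a whole. In the alignment files of replicate 1, 83.6% (solvent) and 86.8% (MS-275) of the alignments on members' exons lay at a position and strand already taken, against 53.2% and 54.4% over all alignments. For Atp5b, 37682 alignments in the solvent file fell on 2768 distinct positions. The files of replicate 2 kept each position 1 time, and the values of replicate 1, which followed those files, spanned 0.00151 to 1.19 in solvent over the tested members, against 0.00251 to 8.66 for replicate 2. The part of this difference in the disagreement between the pairs was not tested.

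Of the subunits encoded by mitochondrial DNA, 6 were matched by name, and 3 of them had values well above 0 in replicate 1 only. ND5 and ND6 of complex I were listed at 1.60 and 1.63 in solvent and at 1.41 and 1.43 with MS-275, and COX1, the catalytic subunit of complex IV, at 0.916 and 0.833. In replicate 2 these 3 genes were listed at 0. The values of replicate 2 followed the alignment files of replicate 1, which held 0 alignments to mitochondrial DNA. The files of replicate 2 held 13431 (solvent) and 13889 (MS-275). A value of 0 is thus not read as absence of these transcripts. The gene matched as COX2 went the opposite way, and its identity was not checked beyond the name. It was listed at 0 in replicate 1 and at 0.00074 (solvent) and 0.00087 (MS-275) in replicate 2, under the minimum for testing. ND3 and ND4L were listed at 0 in all 4 libraries. With 1 library per condition the differences have no replicate check.

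Other genes of the pathway were described by lists, none of which had a gene called without the block. With the block, which called 21% of all genes higher and 6.46% lower, 2 of 15 complex I assembly factors were higher and 1 lower. Timmdc1 (listed as 4930455C21Rik) rose from 0.226 and 0.184 to 0.297 and 0.396, and Tmem186 fell from 0.205 and 0.125 to 0.110 and 0.0548, with limma adjusted p of 0.0310 and 0.00409 with the block. Of 30 assembly factors for complexes II to V, 4 were higher and 2 lower. Coa4 (Chchd8) rose from 0.152 and 0.0749 to 0.257 and 0.205, Cox19 from 0.187 and 0.113 to 0.287 and 0.318, and Surf1, whose loss in humans causes complex IV deficiency, fell from 0.214 and 0.144 to 0.136 and 0.0838, with limma adjusted p of 0.00312, 0.00517 and 0.0291 with the block.

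Of 7 cytochrome c and ATP synthase partner genes, 2 were higher with the block and 0 lower. Cyct, the testis form of cytochrome c, gave 0.258 and 0.251 in solvent and 0.344 and 1.08 with MS-275, both treated values above both controls (limma adjusted p = 0.00813 with the block). Higd1a, a small inner membrane protein induced by low oxygen, gave 0.110 and 0.596 in solvent and 0.117 and 3.28 with MS-275. The somatic cytochrome c gene Cycs was not analysed here.

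Of 19 genes for the transcription of respiratory genes and of mitochondrial DNA, 3 were higher and 2 lower with the block. The estrogen-related receptors, which act on respiratory promoters, split: Esrrg rose from 0.00233 and 0.00104 to 0.0464 and 0.0168 and Esrra from 0.0649 and 0.0338 to 0.0808 and 0.110, whereas Esrrb, also a pluripotency factor, fell from 0.858 and 1.32 to 0.603 and 0.289. Ppargc1a, a coactivator known as an inducer of mitochondrial genes, was listed at 0.00087 and 0.00046 in solvent and at 0.00645 and 0.00605 with MS-275. These values are low on the scale in all 4 libraries. Both solvent values were under 0.001, so Ppargc1a was tested only through its MS-275 values and could only be called higher. Its call, counted among the 3, is therefore no support for a rise. Pprc1, a relative of Ppargc1a, fell from 0.318 and 0.431 to 0.205 and 0.204. The limma adjusted p with the block were between 7.39e-05 and 0.0280 for these 5 genes.

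In the tricarboxylic acid cycle and pyruvate dehydrogenase list 1 of 24 genes was called, Pdp1, a phosphatase that activates pyruvate dehydrogenase, which rose from 0.109 and 0.0624 to 0.172 and 0.143. Of 26 import and inner membrane genes 3 were higher and 0 lower, among them Slc25a31, the testis form of the ADP/ATP carrier, which rose from 0.0922 and 0.0604 to 0.197 and 0.211. The medians of these lists were 0.04 and 0.09, beside 0.20 over all genes and 0.04 over genes with a mean value of 0.1 or more, and those of the complex I and the complex II to V assembly factors were -0.01 and 0.10.

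Markers of cell types moved with the treatment. All 12 ES cell markers were lower with MS-275 in both pairs, against 26.5% of all genes. Of them 5 were called lower with the block, against 6.46% of all genes. The summed value of the 12 went from 6.90 to 5.39 in pair 1 and from 24.8 to 14.2 in pair 2. None was absent, and Fgf4 fell from 0.573 and 0.397 to 0.269 and 0.0922. Pou5f1 gave 0.727 and 2.33 in solvent and 0.575 and 0.786 with MS-275. Of 12 fibroblast markers, which the feeder cells would carry, 6 were called higher and 0 lower with the block (21% and 6.46% of all genes). Their sums were 0.408 and 0.539 in solvent and 0.727 and 0.946 with MS-275. Col1a1 rose from 0.0146 and 0.0101 to 0.0681 and 0.110, while Col3a1 and Dcn were lower in both pairs and were not called. Col3a1 gave 0.00992 and 0.0156 in solvent and 0.00692 and 0.00755 with MS-275, and Dcn gave 0.00503 and 0.0239 in solvent and 0.00158 and 0.0113 with MS-275. In bulk RNA, a change in the share of cells of a type cannot be told apart from a change in RNA per cell.

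The isoforms that rose are known from striated muscle, lung and testis, and a part of the muscle and male germline markers rose with them. Of 10 tested striated muscle markers 6 were called higher and 0 lower with the block (21% and 6.46% of all genes). The sums of the muscle markers were 0.125 and 0.118 in solvent and 0.248 and 0.241 with MS-275. Myl2 rose from 0.0153 and 0.00683 to 0.0545 and 0.0503. Actc1 gave 0 and 0.00777 in solvent and 0.00066 and 0.0035 with MS-275, lower in pair 2. Mybpc3 and Mb were also lower in pair 2, and Myl7 was lower in pair 1. Ckmt2 was at or near 0 in every library and was not tested. Of 11 tested male germline markers 6 were called higher and 0 lower, with sums of 0.917 and 0.663 in solvent and 1.33 and 2.04 with MS-275. Ldhc, the testis lactate dehydrogenase, rose from 0.0511 and 0.0188 to 0.125 and 0.0826. Ddx4 and Odf1 were lower in pair 2, with log2 fold changes of -0.196 and -0.309. Tnp2 was lower in pair 1, with -0.066, and none of these genes was called. The other 8 tested markers of this list were higher in both pairs. The defining late genes were at or near 0 in solvent: Prm1 and Akap4 were listed at 0 in both solvent libraries and at 0.00687 and 0.005, and 0.00388 and 0.00469, with MS-275. Both were tested only because their MS-275 values reached 0.001, so they could only be called higher. Their calls, counted among the 6, are therefore no support for a rise. Cyct and Slc25a31 belong both to this list and to the lists given above. Of the fibroblast markers 6 of 12 had been called higher, and the part of feeder or differentiated cells in the rise of Cox4i2, Cox7a1, Cox7b2 and Cox8c was not tested.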

How the data were processed

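Poly(A) RNA of 4 libraries (2 solvent, 2 MS-275) was sequenced by the authors on an Illumina GAIIx and mapped to mm9. The deposited gene values are a normalized signal that the authors made with the Genomatix software, with no formula given in the sources used here. The deposited alignment files hold 1 line per 35-base alignment, without values. Groups followed the sample titles. The results of 1 member are not reported here. Tables of the authors' ratios between conditions were not used. The members and gene lists were chosen with earlier results of these data known. Of 180 list entries, 149 matched by symbol, 19 by Entrez ID and 12 were not listed.

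Values were compared as log2(value + 0.005) in limma 3.58.1 (R 4.3.3; lmFit, eBayes with a trend, two-sided, Benjamini-Hochberg adjustment over 20336 genes that reached 0.001 in 2 or more libraries), without and with the replicate number as a block. The block was used because the file names mark the replicates as an old and a new set in both conditions, and deviations of same-numbered libraries from their group means correlated at 0.764 over all genes tested. Distinct alignment positions on GENCODE M1 exons were tested by limma-voom for genes with at least 10 of them in 2 or more libraries (15146 genes). The script was tested on simulated data. Depth limits low members such as Cox7b2, and replicates number 2 per condition.

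Genes were named by a rule: all complex II members, all members called with or without the block, the strongest in each direction within each complex, isoforms with their partners, the highest member of each complex, and the genes of each list that changed most. Python 3.11.15 with numpy 2.4.6, pandas 2.3.3, numba 0.67.0 and matplotlib 3.10.9 made the other tables. Alternatives covered the pseudocount, the filter, the scaling, the spread model, alignment positions and each library left out.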

Additional observations from a re-analysis of the deposited data

How the results depend on the processing

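Without the replicate block, the count of members called higher was 0 under both other pseudocounts, both other filters, quantile normalization, median-ratio scaling and eBayes without a trend, and 4 on distinct alignment positions (16.9% of all genes). Apart from the fit on distinct positions, these fits called no gene at all, so their 0 says nothing of stability. The replicate block gave 5 higher and 0 lower (21% and 6.46% of all genes). With the replicate block it was 13 higher and 2 lower under quantile normalization (13.9% and 13.2% of all genes), 4 and 3 under median-ratio scaling (16.6% and 14.1%), 1 and 0 among genes whose mean reached 0.1 (6.32% and 4.62% of them called), and 6 and 4 on distinct alignment positions (31.4% and 14.2%). With exon length and GC trends removed, added after seeing the data, it was 1 higher (1.44% of all genes) and 0 lower without the block, and 4 higher and 6 lower with it (14.7% and 15.7%). Cox7a1 was called in all 6 fits with the block, and Cox4i2, Cox7b2 and Cox8c in the 5 that tested them. Ndufs1 was called lower in 4 of 6. Cox4i2, Cox7a1, Cox7b2, Cox8c, Ndufa8 and Ndufs1 kept their direction in every setting run, whereas 35 of 76 other members changed sign under a setting with all 4 libraries and 73 with a library left out. A minimum of 1.5-fold in both pairs gave 5 members higher.

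With each library left out, given as values with no test, the members' median log2 fold change was 0.99 without solvent replicate 2, 1.31 without MS-275 replicate 1, -0.39 without solvent replicate 1 and -0.62 without MS-275 replicate 2. Members with at least 2-fold higher means numbered between 4 and 54, and those at least 2-fold lower between 0 and 35. The cause was not tested. The median value over the members was 0.409 (solvent) and 0.418 (MS-275) in replicate 1 and 0.943 and 1.33 in replicate 2. The replicate block cannot be fitted with a library left out, as no residual degrees of freedom remain. With 2 libraries per condition, the lowest members, Cox6a2, Atp5g2 and Cox8b, rest on 7 or fewer alignments in each file.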
